A study of Mus musculus with 8 samples.

Results

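The genes described here encode enzymes of eicosanoid synthesis, the pathway that turns arachidonic acid into leukotrienes, lipoxygenase products, prostaglandins and thromboxane. The 10 genes Alox5, Alox5ap, Alox15, Lta4h, Ltc4s, Ptgs1, Ptgs2, Ptges, Hpgds and Tbxas1 were chosen by symbol, through the array rows that the platform annotation pairs with a single gene. Of these, 9 had such a row, 1 row each, among the 19938 genes tested, and Ptgs1 was not analysed here. Transcripts were measured with Affymetrix arrays in macrophages washed from the peritoneum of wild-type C57/Bl6 mice. The cells of 10 mice were pooled, kept overnight in RPMI with fetal calf serum, and then cultured further, either with recombinant HRG or without it. HRG is histidine-rich glycoprotein, which circulates in blood and has heparan sulphate, haem and zinc among its ligands. The 4 groups were HRG for 24 h, basal for 24 h, HRG for 6 h and basal for 6 h, where HRG was given at 1 µg/ml and basal cells were untreated in the same medium, with 2 arrays in each group. Because all samples derive from 1 pool of mice, and no source says how separately the replicates were handled, p-values measure the spread between these arrays, which may be technical, and the small number of arrays limits the precision.

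In the leukotriene branch, 5-lipoxygenase (Alox5) works with its activating protein (Alox5ap) to make leukotriene A4, which leukotriene A4 hydrolase (Lta4h) converts to the chemoattractant leukotriene B4 and leukotriene C4 synthase (Ltc4s) conjugates with glutathione. In the prostanoid branch, cyclooxygenase-2 (Ptgs2), the inducible isoform, makes prostaglandin H2, from which microsomal prostaglandin E synthase-1 (Ptges), haematopoietic prostaglandin D synthase (Hpgds) and thromboxane A synthase (Tbxas1) make prostaglandin E2, prostaglandin D2 and thromboxane A2. Alox15 encodes the 12/15-lipoxygenase, an enzyme for which resident peritoneal macrophages of mice are well known. Hpgds is also abundant in mast cells, which live in the peritoneal cavity.

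The 2 genes of the set that passed with HRG at 6 h were Alox5 and Tbxas1, and the stretches before their starts are shown because they moved together in that comparison. Promoter windows were matched by symbol for 8 of the 10 genes in the RefSeq table of build GRCm38.p6. The 250 bases before the start of Alox5 lie at chr6:116461179-116461428 on the minus strand. Those of Tbxas1 lie at chr6:38918736-38918985 on the plus strand, inside the gene's annotated span and before one of its starts. Capitals mark exact matches to 3 motifs of 6 letters, searched on both strands.
Alox5: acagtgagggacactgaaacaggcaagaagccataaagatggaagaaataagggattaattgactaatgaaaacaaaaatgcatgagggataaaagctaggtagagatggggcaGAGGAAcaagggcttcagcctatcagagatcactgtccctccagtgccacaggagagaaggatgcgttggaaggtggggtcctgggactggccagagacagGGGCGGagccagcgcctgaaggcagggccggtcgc
Tbxas1: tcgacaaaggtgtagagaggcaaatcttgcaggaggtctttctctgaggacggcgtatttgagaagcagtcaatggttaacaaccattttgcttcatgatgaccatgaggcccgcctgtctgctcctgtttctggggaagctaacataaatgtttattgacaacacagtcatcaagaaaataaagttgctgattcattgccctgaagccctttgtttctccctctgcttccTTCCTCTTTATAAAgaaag
The GC box GGGCGG, the core of Sp1 sites, was found once in the Alox5 window, beginning 35 bases before the start, and was not found in the Tbxas1 window. It occurs in 32.7% of the 32851 RefSeq windows of this length. The letters GAGGAA, the core of sites for the myeloid factor PU.1, were found in both, beginning 136 bases before the start of Alox5 and, on the opposite strand as TTCCTC, 19 bases before that of Tbxas1, against 23.3% of all windows. The TATA box TATAAA was found at 11 bases before the Tbxas1 start, overlapping its own match on the opposite strand, and in 12.4% of all windows, but not in the Alox5 window. These matches describe letters only.

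Values are log2 expression after RMA, and a level is not compared between genes. All 9 genes lay above the median of the array on each of the 8 arrays. Replicate arrays correlated at r between 0.996 and 0.998 across rows. Of the macrophage markers Adgre1, Csf1r, Cd68, Lyz2, Itgam, Fcgr1 and Mertk, 7 of 7 lay above the array median on all arrays, as did 8 of 9 mast cell markers and 4 of 4 measured B cell markers. For eosinophil, neutrophil, and T and NK cell markers this held for 1 of 6, 1 of 6 and 1 of 5. Differences are HRG minus basal, or 24 h minus 6 h, in log2 units with the standard error (SE) taken from limma, and each group has n = 2 arrays. A gene is said to have risen or fallen only with a limma p, adjusted by Benjamini-Hochberg over all 19938 genes, under 0.05. Overlap, or its lack, only describes the 2 arrays of one group beside the 2 of another. The share of all genes without overlap was not counted.

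**Figure D1:**
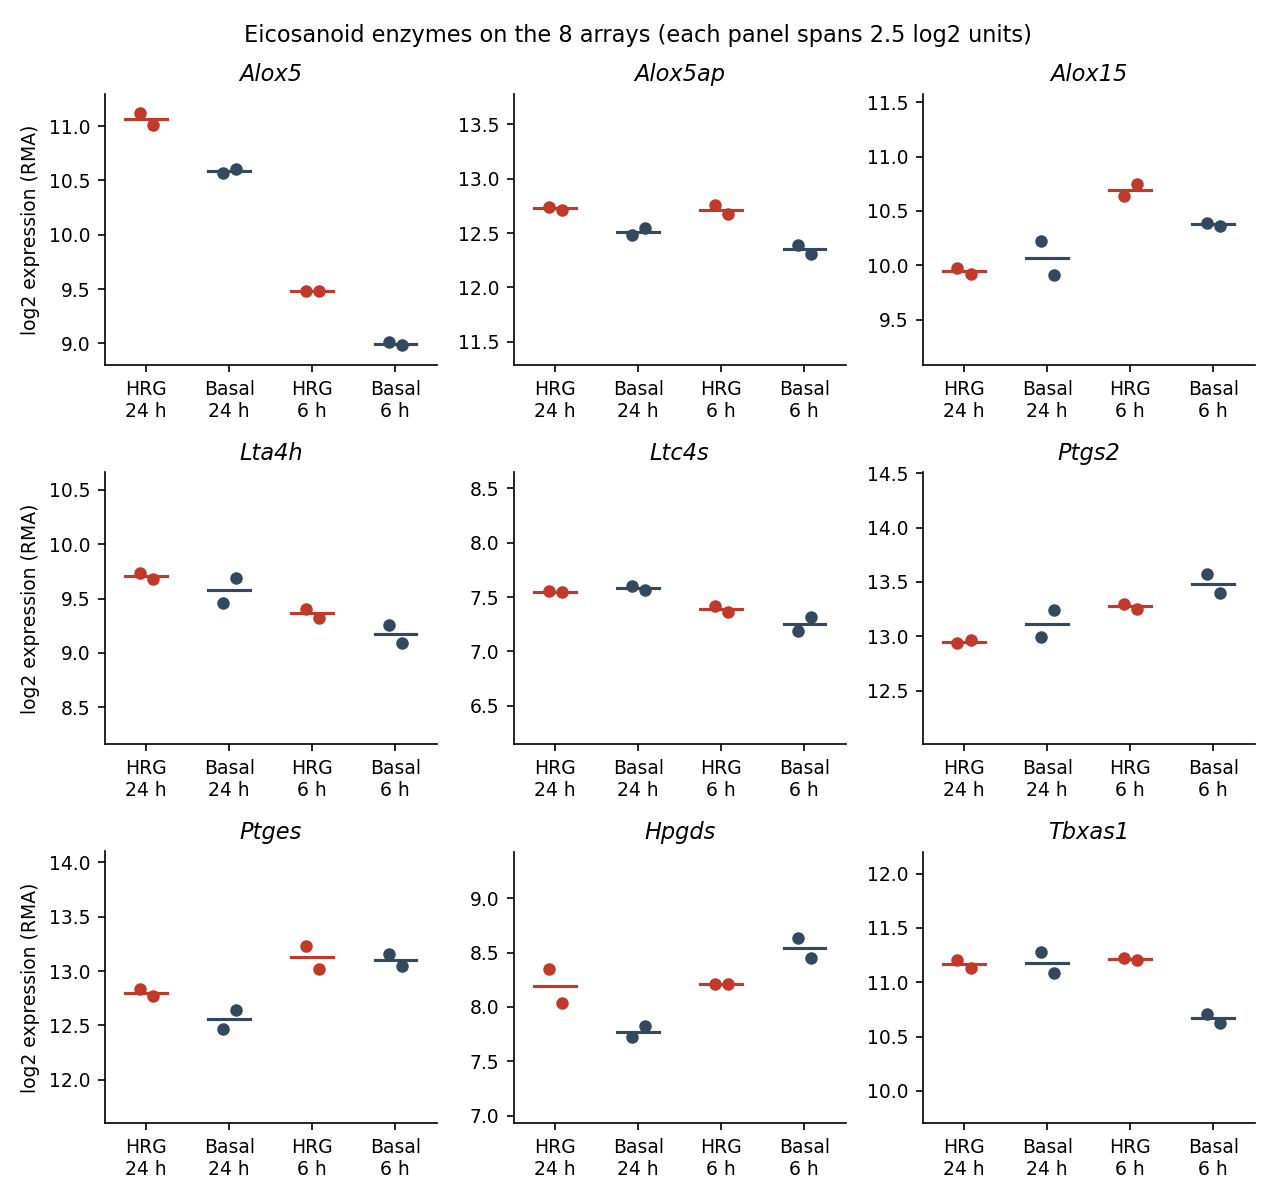
Each panel plots the log2 expression of 1 eicosanoid enzyme in HRG and basal samples at 24 h and 6 h, with a point per array and a line at the group mean. Alox5 spans 2.13 log2 units over the 8 arrays, from 8.98 in a basal 6 h sample to 11.12 in an HRG 24 h sample, and Hpgds is lowest in the 2 basal 24 h samples.

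The comparison of HRG with basal cells at 24 h asked which of these enzymes differed after a day with the protein. Alox5 rose 1.39-fold, and it was the 1 gene of the 9 that passed, while 0 fell. Across all genes, 3.48% passed at 24 h, 2.43% as higher and 1.05% as lower. The median difference of the 9 was 0.13, beside -0.02 over all genes.

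The comparison at 6 h asked which of them differed early. Tbxas1 rose 1.46-fold and Alox5 rose 1.40-fold, so 2 of 9 rose and 0 fell, where 1.25% of all genes passed, 0.431% as higher and 0.818% as lower. The median difference of the 9 was 0.19, beside 0.02 over all genes. Unadjusted limma p was under 0.05 for 5 of the 9 at 6 h and for 4 of the 9 at 24 h. The share of all genes at that unadjusted threshold was not counted, and the percentages above are for adjusted p. These 2 counts therefore have no baseline here.

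**Figure D2:**
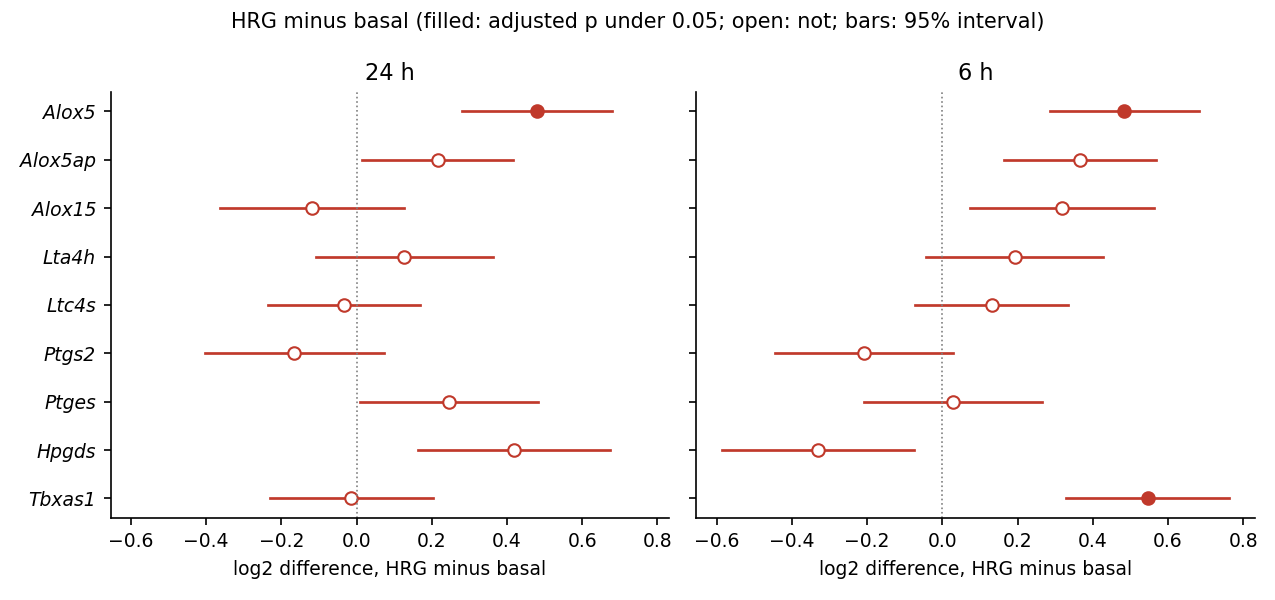
HRG minus basal in log2 units for the 9 eicosanoid enzymes at 24 h (left) and 6 h (right), with filled points for an adjusted p under 0.05 and bars for the 95% interval of the fit. Alox5 is filled at both times (0.48 at 24 h and 0.48 at 6 h), and Tbxas1 at 6 h (0.55), where Hpgds lies on the opposite side of 0 (-0.33).

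Alox5, which starts leukotriene synthesis, was the member with the widest range. Its log2 level was 11.12 and 11.01 in HRG samples at 24 h, against 10.57 and 10.60 in basal samples at 24 h. At 6 h it was 9.49 and 9.48 in HRG samples, against 9.01 and 8.98 in basal samples. The 4 groups did not overlap, and both HRG arrays were above both basal arrays at each time. The difference was 0.48 ± 0.091 (SE) at 24 h, with adjusted p = 0.0117, and 0.48 ± 0.091 at 6 h, with adjusted p = 0.0276, both from limma. The HRG effect at 24 h minus that at 6 h was -0.0043, with a 95% interval from -0.29 to 0.28. The size held when single arrays were left out, from 0.43 to 0.53 at 24 h and from 0.47 to 0.50 at 6 h, but the call did not. At 24 h it was lost without HRG_24h replicate 1 (adjusted p = 0.152), Basal_24h replicate 1 (0.0604) or Basal_24h replicate 2 (0.0699), and at 6 h without any 1 of the 6 arrays of the HRG 24 h, HRG 6 h and basal 6 h groups (adjusted p between 0.0521 and 0.227). The 6 h call was also lost when every row was tested (0.0530) or only the arrays compared were fitted (0.0669).

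Alox5 differed more between 6 h and 24 h than between HRG and basal samples. At 24 h it was 2.99 times its 6 h level in HRG samples (1.58 ± 0.091, adjusted p = 3.63e-06) and 3.003 times in basal samples (1.59 ± 0.091, adjusted p = 1.96e-06), by limma. Both calls held without each of the 8 arrays in turn. In a bulk sample, more cells of a type and more RNA per cell cannot be told apart. Alox5 is also expressed by neutrophils and mast cells: 0 of 6 neutrophil markers and 0 of 9 mast cell markers passed with HRG at 6 h, and at 24 h 0 of 6 neutrophil markers passed and 5 of 9 mast cell markers rose with it. Over all genes, 2.43% rose with HRG at 24 h and 0.431% at 6 h. Of 7 macrophage markers, Fcgr1 and Mertk rose with HRG at 24 h and Mertk at 6 h. The part of mast cells or of these genes in the Alox5 difference was not tested.

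Alox5ap, the membrane protein that presents arachidonic acid to 5-lipoxygenase, had higher values with HRG that did not pass. It read 12.74 and 12.71 in HRG samples against 12.48 and 12.54 in basal samples at 24 h, and 12.76 and 12.67 in HRG samples against 12.39 and 12.31 in basal samples at 6 h. HRG and basal arrays did not overlap at either time. The difference was 0.22 at 24 h (95% interval 0.014 to 0.42, limma adjusted p = 0.343) and 0.37 at 6 h (0.16 to 0.57, limma adjusted p = 0.0972). Under 3 of the 9 alternative settings the 6 h difference passed. The limma adjusted p was 0.00568 under eBayes with trend and robust, 0.0352 after renewed quantile normalization and 0.0270 with the array's own lower quartile as a covariate.

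The enzymes that use leukotriene A4 showed no call with HRG. Lta4h read 9.73 and 9.68 in HRG samples against 9.46 and 9.69 in basal samples at 24 h, and 9.41 and 9.32 against 9.26 and 9.09 at 6 h in HRG and basal samples. Ltc4s read 7.56 and 7.55 in HRG samples against 7.60 and 7.57 in basal samples at 24 h, and 7.42 and 7.36 against 7.19 and 7.32 at 6 h in HRG and basal samples. At 24 h the HRG and basal arrays overlapped for Lta4h, while for Ltc4s both HRG arrays lay just below both basal arrays, and at 6 h HRG arrays were above basal arrays for both genes without overlap. At 24 h the 95% intervals of HRG minus basal ran from -0.11 to 0.36 for Lta4h and from -0.24 to 0.17 for Ltc4s. At 6 h the intervals ran from -0.043 to 0.43 for Lta4h and from -0.072 to 0.33 for Ltc4s, so differences of these sizes were not excluded.

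Alox15, the 12/15-lipoxygenase, was highest in HRG samples at 6 h. It read 9.97 and 9.92 in HRG samples against 10.22 and 9.91 in basal samples at 24 h. At 6 h it read 10.64 and 10.75 in HRG samples against 10.39 and 10.36 in basal samples. The groups overlapped at 24 h and not at 6 h, and neither difference passed: -0.12 ± 0.11 at 24 h (limma adjusted p = 0.812) and 0.32 ± 0.11 at 6 h (limma adjusted p = 0.279). From 6 h to 24 h Alox15 fell in HRG samples, 1.68-fold (-0.75 ± 0.11, limma adjusted p = 0.00165), and in basal samples the difference was -0.31 ± 0.11 (limma adjusted p = 0.125). The test of the HRG effect at 24 h minus that at 6 h, which is also the test of one time effect against the other, gave -0.44 ± 0.16 (limma adjusted p = 0.288). Of the 5 other markers of large resident peritoneal macrophages, Cd5l fell with time in HRG samples (-0.97 ± 0.12) beside Alox15, where 2.87% of all genes fell. In basal samples, where 5.48% of all genes fell, the markers Cd5l, Timd4 and Gata6 fell. Their part in the Alox15 difference was not tested.

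Among the prostanoid enzymes, Ptgs2, which makes the common precursor, had lower mean levels with HRG at both times that did not pass. It read 12.94 and 12.96 in HRG samples against 12.99 and 13.24 in basal samples at 24 h, and 13.29 and 13.25 in HRG samples against 13.57 and 13.39 in basal samples at 6 h. No HRG array reached a basal array of the same time, yet the basal arrays were themselves spread by 0.25 at 24 h. The difference was -0.17 at 24 h (95% interval -0.402 to 0.072, limma adjusted p = 0.655) and -0.21 at 6 h (-0.45 to 0.028, limma adjusted p = 0.530).

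Ptges, which converts prostaglandin H2 to prostaglandin E2, read 12.83 and 12.77 in HRG samples against 12.47 and 12.64 in basal samples at 24 h. At 6 h its values of 13.23 and 13.02 in HRG samples spanned the 13.16 and 13.04 of basal samples. The difference was 0.25 ± 0.11 at 24 h (limma adjusted p = 0.361) and 0.028 ± 0.11 at 6 h (limma adjusted p = 0.966).

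Tbxas1, the thromboxane synthase, differed at 6 h and not detectably at 24 h. It read 11.21 and 11.13 in HRG samples against 11.28 and 11.08 in basal samples at 24 h. At 6 h it read 11.23 and 11.21 in HRG samples against 10.71 and 10.63 in basal samples. The 2 basal samples at 6 h stood below the other 6 arrays, which lay within 11.08 and 11.28. The difference was 0.55 ± 0.0995 at 6 h (limma adjusted p = 0.0244) and -0.014 ± 0.0995 at 24 h (limma adjusted p = 0.984). The HRG effect at 24 h minus that at 6 h was -0.56 ± 0.14 (limma adjusted p = 0.0851), so a difference between the times did not pass, although it did under eBayes with trend and robust (adjusted p = 0.0170) and after renewed quantile normalization (0.0309). Leaving out any 1 array of the HRG 24 h, HRG 6 h and basal 6 h groups ended the call at 6 h (adjusted p between 0.0501 and 0.200, difference between 0.505 and 0.59). Platelets carry Tbxas1 as well. With HRG at 6 h, where 1.25% of all genes passed, 0 of the 5 measured platelet and megakaryocyte markers passed. One of them, Ppbp, was 0.50 ± 0.11 higher with HRG at 6 h (limma adjusted p = 0.0608), with levels of 8.65 and 8.70 in HRG samples against 8.17 and 8.17 in basal samples. The mean log2 level over the 5 markers at 6 h was 8.84 and 8.95 in HRG samples against 8.68 and 8.84 in basal samples. The part of platelets in the Tbxas1 difference was not tested.

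Hpgds, the haematopoietic prostaglandin D synthase, was the 1 gene of the 9 whose HRG effect differed between the times, where 1.47% of all genes passed, 1.02% as higher and 0.451% as lower. It read 8.35 and 8.04 in HRG samples against 7.72 and 7.82 in basal samples at 24 h. At 6 h it read 8.21 and 8.21 in HRG samples against 8.63 and 8.45 in basal samples. HRG arrays were thus above basal arrays at 24 h and below them at 6 h, with no overlap at either time. Neither difference passed alone: 0.42 ± 0.12 at 24 h (limma adjusted p = 0.0896) and -0.33 ± 0.12 at 6 h (limma adjusted p = 0.281). The effect at 24 h minus that at 6 h was 0.75 ± 0.17 (limma adjusted p = 0.0497). That call stood close to the threshold: it was lost after centring each array (adjusted p = 0.0529), when every row was tested (0.0912) and without any 1 of HRG_6h replicate 1 (0.151), HRG_6h replicate 2 (0.169), Basal_6h replicate 1 (0.132), HRG_24h replicate 1 (0.230), Basal_24h replicate 1 (0.108) or Basal_24h replicate 2 (0.105). The difference without single arrays lay between 0.59 and 0.904.

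Mast cell markers moved beside Hpgds. Of 9 markers, Cpa3, Mcpt4, Ms4a2, Hdc and Gata2 rose with HRG at 24 h, which made 5 of 9, and 0 of 9 passed at 6 h. Over all genes, 2.43% rose with HRG at 24 h and 1.25% passed at 6 h. In the effect at 24 h minus that at 6 h, where 1.02% of all genes rose, 4 of 9 rose (Cpa3, Ms4a2, Hdc and Gata2). All 9 differences were above 0. From 6 h to 24 h in basal samples, where 5.48% of all genes fell, Cma1, Mcpt4, Hdc and Gata2 fell and all 9 differences were below 0. The mean log2 level over the 9 markers was 9.55 and 9.24 in HRG samples against 8.73 and 8.93 in basal samples at 24 h, and 9.15 and 9.24 in HRG samples against 9.41 and 9.25 in basal samples at 6 h. At 24 h the 5 calls became 1 without HRG_24h replicate 1 and 2 without Basal_24h replicate 1. In the effect at 24 h minus that at 6 h, the 4 calls became 0 without HRG_6h replicate 1 or HRG_24h replicate 1, 1 without HRG_6h replicate 2, and 2 without Basal_6h replicate 1 or Basal_24h replicate 1. All 4 measured B cell markers (Cd79a, Cd79b, Ms4a1 and Pax5) rose in the effect at 24 h minus that at 6 h as well. Their mean log2 level was 9.60 and 9.31 in HRG samples against 9.01 and 8.62 in basal samples at 24 h, and 9.28 and 9.32 in HRG samples against 9.68 and 9.69 in basal samples at 6 h. In that test 1 of 5 measured markers also rose for each of T and NK cells (Cd3g, 1.48), dendritic cells (Ccr7, 0.73), resident macrophages (Timd4, 0.74) and platelets (Ppbp, 0.88). In these lists 1 of 5 differences lay below 0 for T and NK cells and for resident macrophages, and 2 of 5 for dendritic cells and for platelets. The part of any of these cells in the Hpgds difference was not tested.

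**Figure D3:**
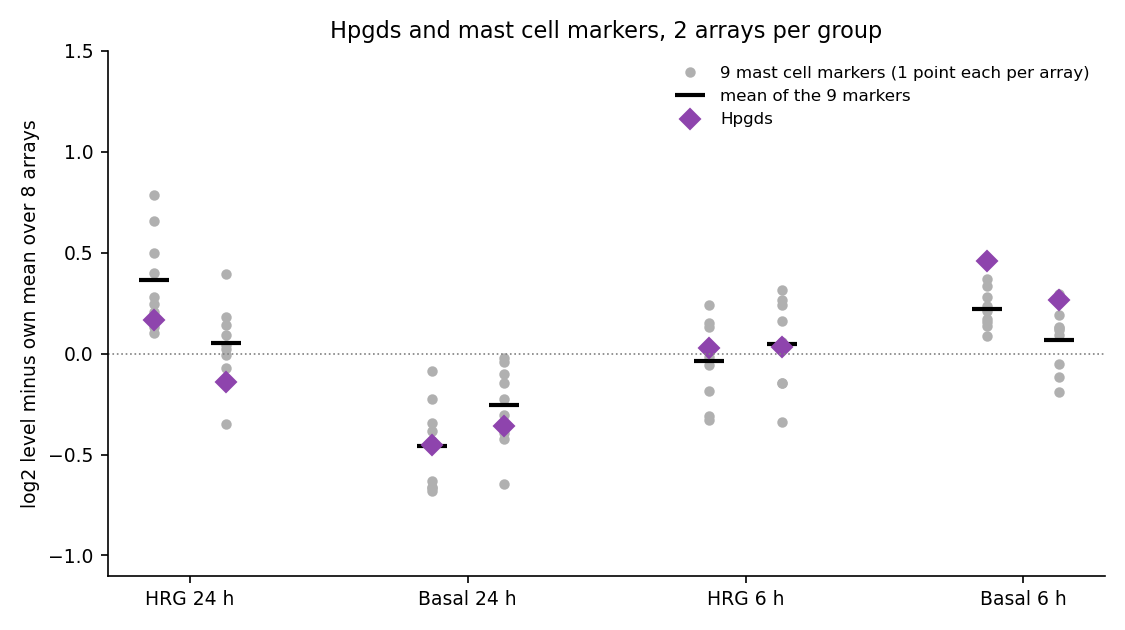
Log2 level of Hpgds (diamonds) and of 9 mast cell markers (grey points, with their mean as a bar) on each of the 8 arrays, each gene set to its own mean over the arrays. Hpgds and the marker mean both stand lowest on the 2 basal 24 h arrays, where Hpgds reads 7.72 and 7.82. The marker means of B cells, large resident peritoneal macrophages and dendritic cells, not drawn, were also lowest there. Those of the other cell types were not.

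In basal cells, which had no HRG, 6 of the 9 genes passed between 6 h and 24 h. This count ran from 4 to 7 under other settings. What part a changed mix of cells had in these differences was not tested. From 6 h to 24 h in basal samples, 4 of 9 rose (Alox5, Tbxas1, Lta4h and Ltc4s) and 2 of 9 fell (Hpgds and Ptges), where 9.28% of all genes passed, 3.80% as higher and 5.48% as lower. Beside Alox5, Tbxas1 rose 1.43-fold (0.51 ± 0.0995, limma adjusted p = 0.00638), Lta4h 1.32-fold (0.41 ± 0.11, adjusted p = 0.0354) and Ltc4s 1.25-fold (0.33 ± 0.093, adjusted p = 0.0476). Hpgds fell 1.70-fold (-0.77 ± 0.12, limma adjusted p = 0.00142) and Ptges 1.46-fold (-0.54 ± 0.11, adjusted p = 0.00727). Ptgs2 was 0.37 lower on the log2 scale in the mean and did not pass (limma adjusted p = 0.0569). Alox5 and Hpgds passed without each of the 8 arrays in turn. Without Basal_24h replicate 1, Ptges (limma adjusted p = 0.0677) and Tbxas1 (0.0656) did not pass. Lta4h did not pass without any 1 of 6 arrays, the exceptions being replicate 1 of each basal group, and Ltc4s did not without any 1 of 7 arrays, the exception being Basal_6h replicate 2 (highest adjusted p 0.250 for Lta4h and 0.243 for Ltc4s). Both were also lost with median centring (0.0797 for Lta4h and 0.0814 for Ltc4s), every row tested (0.0537 and 0.0612) or only the arrays compared (0.0955 and 0.135), and Ltc4s with eBayes with trend and robust (0.0657) or the replicate block (0.0622).

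In HRG samples, 1 of 9 rose from 6 h to 24 h (Alox5) and 1 of 9 fell (Alox15), where 7.28% of all genes passed, 4.41% as higher and 2.87% as lower. The median change of the 9 was -0.02 in HRG samples, beside -0.02 over all genes, and 0.16 in basal samples, beside 0.03 over all genes. Hpgds changed by -0.018 ± 0.12 in HRG samples and Tbxas1 by -0.048 ± 0.0995. That the time effect differed between HRG and basal samples passed for Hpgds alone, in the test given above. The HRG and basal time effects share no arrays, but each shares arrays with the HRG effects.

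**Figure D4:**
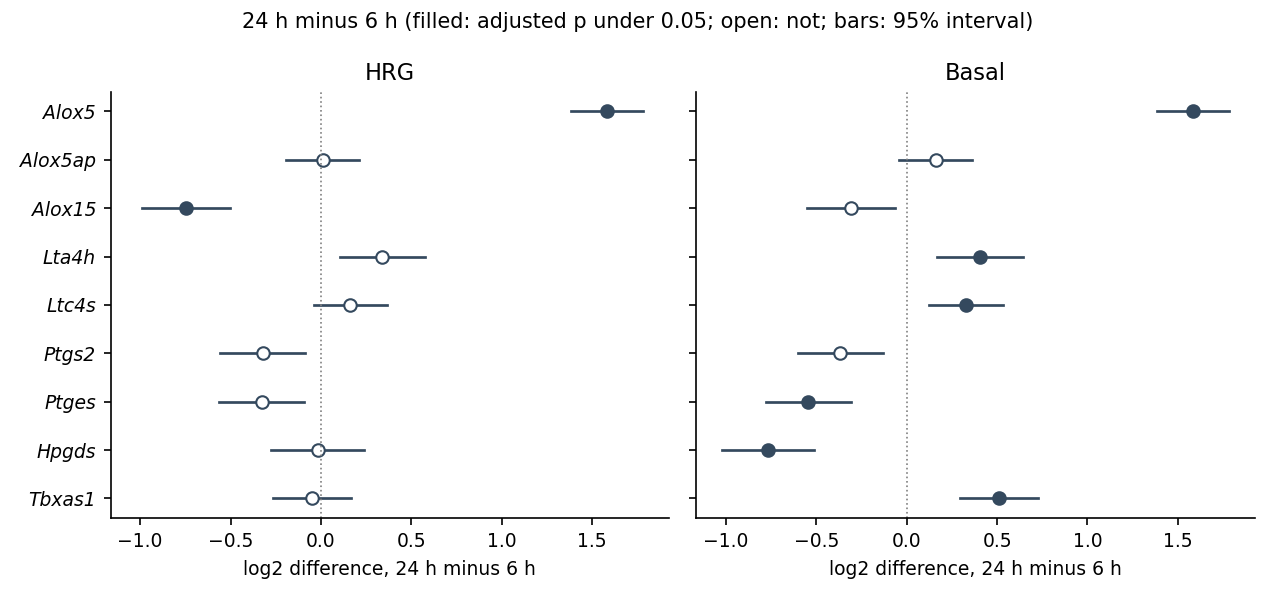
Change from 6 h to 24 h in log2 units for the 9 eicosanoid enzymes in HRG samples (left) and basal samples (right), with filled points for an adjusted p under 0.05 and bars for the 95% interval. Alox5 stands far to the right in both (1.58 in HRG and 1.59 in basal samples), and Hpgds is below 0 in basal samples (-0.77) and near 0 in HRG samples (-0.018).

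Other genes of the pathway were taken from 4 lists of 53 genes, of which 49 were measured. With HRG at 24 h, 6 of 49 rose and 5 fell, with a median of -0.016, where 3.48% of all genes passed, and at 6 h 1 rose and 0 fell, with a median of 0.038, where 1.25% of all genes passed. The count at 6 h is thus near the share over all genes. The 11 calls at 24 h became 6 without HRG_24h replicate 1 and 7 without Basal_24h replicate 2, and the 1 call at 6 h became between 0 and 4 when single arrays were left out and between 0 and 7 under other settings, where Abcc4, Cysltr1, Ptgis and Cotl1 were among those that passed. Of 11 genes that release arachidonic acid or other lipids, 1 rose at each time: Pla2g15, a lysosomal phospholipase, by 0.72 ± 0.0965 at 24 h (limma adjusted p = 0.00145) and 0.52 ± 0.0965 at 6 h (adjusted p = 0.0263). Its 6 h call was lost without any 1 of the arrays of the HRG 24 h, HRG 6 h and basal 6 h groups (adjusted p up to 0.226), when every row was tested (0.0518) and when only the arrays compared were fitted (0.0538).

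Of 8 inactivation and export genes, 3 fell with HRG at 24 h and 0 rose, while 4 of the 8 differences were above 0 and their median was 0.02. Over all genes at 24 h, 1.05% fell and 2.43% rose. Ptgr1, a reductase that inactivates leukotriene B4 and prostaglandins, read 10.00 and 10.26 in HRG samples against 11.15 and 11.47 in basal samples, a 2.27-fold decrease (-1.18 ± 0.13, limma adjusted p = 0.000303). Abcc4, a transporter that exports prostaglandins, read 9.58 and 9.36 in HRG samples against 10.29 and 10.77 in basal samples, a 2.09-fold decrease (-1.06 ± 0.14, adjusted p = 0.00145). Abcc1, which exports leukotriene C4, fell by 0.57 on the log2 scale (adjusted p = 0.00433). For all 3 the HRG effect at 24 h lay below that at 6 h in the test of the difference, at -1.25 ± 0.18 for Ptgr1 (adjusted p = 0.00658), -1.65 ± 0.201 for Abcc4 (0.0041) and -0.71 ± 0.13 for Abcc1 (0.0227). Without single arrays these calls held for Ptgr1 and Abcc4. That of Abcc1 was mostly lost, with a difference between -0.76 and -0.65. At 6 h the differences were 0.073 for Ptgr1, 0.59 for Abcc4 and 0.13 for Abcc1, and none of these 3 passed. The Abcc1 call at 24 h was lost without HRG_24h replicate 1 (adjusted p = 0.0531) or Basal_24h replicate 2 (0.0537).

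Of 17 further synthases and partner proteins, 3 rose and 1 fell with HRG at 24 h, where 2.43% of all genes rose and 1.05% fell. Mgst2, a glutathione transferase that can also make leukotriene C4, read 7.61 and 7.57 in HRG samples against 8.30 and 8.29 in basal samples (-0.71 ± 0.0896, limma adjusted p = 0.000996). Cotl1, a coactosin-like protein that binds 5-lipoxygenase, rose by 0.66 ± 0.1003 (adjusted p = 0.00341), Prxl2b, a prostaglandin F synthase, by 0.51 ± 0.0943 (0.00966) and Ptgis, the prostacyclin synthase, by 0.51 ± 0.12 (0.0469). Without HRG_24h replicate 1 the calls of Cotl1 (adjusted p = 0.0619), Prxl2b (0.142) and Ptgis (0.438) were lost. Prxl2b (0.0693) and Ptgis (0.363) were also lost without Basal_24h replicate 2, and Ptgis was further lost without HRG_6h replicate 1 or 2 (0.0706) and HRG_24h replicate 2 (0.0588), with every row tested (0.0836) and after renewed quantile normalization (0.0691).

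Of 13 measured eicosanoid receptors, 2 rose and 1 fell with HRG at 24 h, where 2.43% of all genes rose and 1.05% fell. Cysltr1, a receptor for the cysteinyl leukotrienes that the Ltc4s pathway yields, read 11.52 and 11.29 in HRG samples against 10.48 and 10.11 in basal samples, a 2.15-fold increase (1.11 ± 0.13, limma adjusted p = 0.000512). The receptors for prostaglandin E2 went in opposite directions: Ptger4 (EP4) rose by 0.56 ± 0.0998 (adjusted p = 0.00832) and Ptger2 (EP2) fell by 0.89 on the log2 scale (adjusted p = 0.000465). Ptger2 read 7.62 and 7.58 in HRG samples against 8.37 and 8.60 in basal samples. Leaving out HRG_24h replicate 1 (adjusted p = 0.117) or Basal_24h replicate 2 (0.0734) ended the Ptger4 call, and the calls of Cysltr1 and Ptger2 at 24 h held without each of the 8 arrays in turn. In the effect at 24 h minus that at 6 h, 5 of 49 fell and 0 rose: Ptgr1, Abcc4, Abcc1, Mgst2 (-0.71 ± 0.13, adjusted p = 0.0209) and Ptger2 (-0.66 ± 0.14, adjusted p = 0.0445). Over all genes, 0.451% passed as lower and 1.02% as higher in that test. Only the calls of Ptgr1 and Abcc4 held without each of the 8 arrays in turn. These 5 calls became 2 without either HRG_6h array, without either HRG_24h array or without Basal_24h replicate 2, and the call of Ptger2 was also lost with median centring (0.0725) or every row tested (0.0791).

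**Figure D5:**
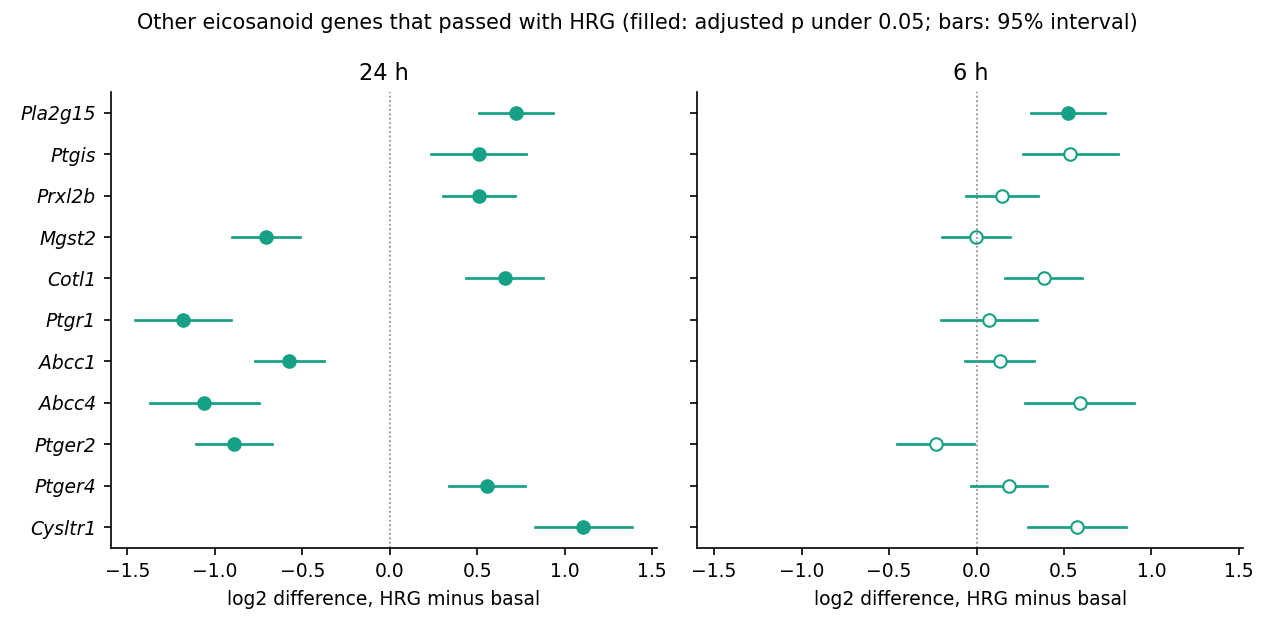
HRG minus basal in log2 units at 24 h (left) and 6 h (right) for the 11 other eicosanoid genes that passed at either time, with filled points for an adjusted p under 0.05 and bars for the 95% interval. At 24 h Cysltr1 lies farthest to the right (1.11) and Ptgr1 farthest to the left (-1.18), and at 6 h Pla2g15 is the 1 filled point (0.52).

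The genes whose levels ran most like those of Alox5 over the 8 arrays were Abca9 (Pearson r = 0.997), Pdk1 (0.996) and Pygl (0.994). For Tbxas1 they were Sfxn5 (r = 0.967), Htt (0.96) and Olfr1261 (0.959). With 8 arrays in 4 groups and 19938 genes to choose from, these values only describe the pattern.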

How the data were processed

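The submitters' processing notes name RMA, limma and the Affymetrix Expression Console; for their versions and the genome build, the sources used here give nothing. The deposited values are log2 expression, made by the authors with RMA. This method subtracts background, makes array distributions alike at the level of probes and combines probes into rows. Over the rows the arrays were not exactly equal. Their medians ran from 7.18 to 7.29, and their lower quartiles from 5.85 to 6.00. Of 28853 rows, 21789 had 1 gene symbol, and 999 genes with more than 1 row were represented by that of highest mean, which left 19938 genes. Symbols came from the platform annotation and were checked by gene ID in RefSeq names. No array was left out, and groups came from the sample titles.

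In R 4.3.3, limma 3.58.1 estimated a mean for each group from all 8 arrays (lmFit, contrasts.fit, eBayes; 4 residual and 7.81 prior degrees of freedom) for 5 comparisons, two-sided, with Benjamini-Hochberg adjustment over all genes and a threshold of 0.05. It was also run on simulated data whose noise was independent between arrays. Those data held no deviations shared between arrays, so that run does not bear on the calls given here. The genes, the pathway lists and the marker lists were chosen with earlier results of these data known. All 10 members were named, and other pathway genes where they passed in an HRG comparison. For each member that passed with HRG, the 3 genes of highest Pearson r were named. Alternatives were the replicate block, eBayes with trend and robust, quantile normalization, median centring, averaging the rows of a gene, testing every row, dropping the dimmest 30% of genes, fitting only the arrays compared, the lower quartile as a covariate, and leaving out single arrays.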

Additional observations from a re-analysis of the deposited data

Results flagged for a closer look

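The HRG effect on Hpgds differed between the times in a test of the difference itself: 0.75 log2 units between the effect at 24 h (0.42) and the effect at 6 h (-0.33), with adjusted p = 0.0497 by limma. The 2 effects have opposite signs, and neither passed alone. The call of their difference was lost with median centring (limma adjusted p = 0.0529) and with every row tested (0.0912). Without single arrays the difference lay between 0.59 and 0.90, and the call was mostly lost, as given above. In the same test of the difference, where 1.02% of all genes passed as higher, 4 of 9 mast cell markers and 4 of 4 measured B cell markers did. So did 1 of 5 measured markers each of T and NK cells (Cd3g, 1.48), dendritic cells (Ccr7, 0.73), resident macrophages (Timd4, 0.74) and platelets (Ppbp, 0.88). Differences below 0 numbered 1 of 5 for T and NK cells and for resident macrophages, and 2 of 5 for dendritic cells and for platelets. Their part in the Hpgds difference was not tested.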

How the results depend on the processing

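The direction of each called member value was kept under every alternative run, and 20 of 756 alternative values changed sign, all of differences that were not called and no larger than 0.12 in size. The number of the 9 enzymes called for HRG against basal at 6 h (2) was 1 when every row was tested or only the arrays compared were fitted, 3 with trend and robust, quantile normalization or the lower quartile as a covariate, and 0 to 2 without single arrays. At 24 h the number (1) was 2 with that covariate, and 0 to 1 without single arrays. For the effect at 24 h minus that at 6 h (1), it was 2 with trend and robust or quantile normalization, 0 with median centring or every row tested, and 0 to 1 without single arrays. For 24 h against 6 h in HRG cells (2), it was 5 with trend and robust, quantile normalization or the covariate and 4 with only the arrays compared, and it was 2 without each array in turn. In basal cells (6) it was 4 to 7 over these settings and 4 to 6 without single arrays. The causes were not tested.

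With the replicate block the numbers called were 2 at 6 h, 1 at 24 h, 1 for the effect at 24 h minus that at 6 h, 2 in HRG cells and 5 in basal cells, where Ltc4s was lost (adjusted p = 0.0622). The replicate numbers are not stated to pair samples, so they were not taken to do so. Deviations of same-numbered arrays correlated at 0.27, 0.24 and 0.41 among the HRG 6 h, basal 6 h and HRG 24 h groups. Between each of these groups and basal 24 h, the correlations were negative, at -0.28 (HRG 6 h), -0.33 (basal 6 h) and -0.20 (HRG 24 h). What these arrays share was not tested. Over all genes, the calls at 6 h (249) ran from 134 to 518 under other settings and from 21 to 287 without single arrays, those at 24 h (694) from 657 to 1099 and from 182 to 781, those of the effect at 24 h minus that at 6 h (294) from 168 to 547 and from 56 to 404, those of time in HRG cells (1452) from 1250 to 2518 and from 529 to 1680, and those of time in basal cells (1851) from 1300 to 2445 and from 1124 to 1817. None of the 9 genes lay below the lower quartile of any array, and each group had 2 arrays. The alternatives for the other pathway genes and the mast cell markers were chosen after seeing the data.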

Other observations

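From 6 h to 24 h, 7 of the 49 other pathway genes rose and 4 fell in HRG samples, where 7.28% of all genes passed, and 7 rose and 2 fell in basal samples, where 9.28% of all genes passed. Cyp4f18, a cytochrome that hydroxylates leukotriene B4 in mouse myeloid cells and was singled out after its values were seen, fell in HRG samples by 0.58 and in basal samples by 1.12 on the log2 scale (limma adjusted p = 0.0215 and 0.000277). Cysltr1 rose 3.03-fold in HRG samples and 2.10-fold in basal samples over the same time (adjusted p = 2.56e-05 and 0.000277).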
